A study of Mus musculus with 6 samples.

Results

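The Wnt family genes described here are 49 genes, measured by 66 of the 38467 probes on the arrays and making up 49 of the 15123 genes that the platform annotation names. They were taken by gene symbol alone: each probe named Wnt, Fzd (Frizzled receptor), Sfrp (secreted Frizzled-related protein), Dkk (Dickkopf), Lgr or Rspo (R-spondin) with a number, and Lrp5, Lrp6, Axin1, Axin2, Wif1, Lef1, Ctnnb1, Apc and Rnf43. By role they are 19 ligands, 11 receptors and co-receptors, 9 secreted antagonists, 5 genes of the R-spondin axis and 5 genes of the cytoplasm and nucleus. Tcf7, Znrf3 and Lgr4 are not among the named probes and were not analysed here.

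RNA was taken from the gastric antrum, next to the pylorus, on postnatal day 14. Each of 3 littermate pairs held 1 KitK641E mouse, homozygous in the germline for the oncogenic Kit allele K641E:Neo, and 1 KitWT mouse, homozygous for wild-type Kit; Kit is the receptor tyrosine kinase of the interstitial cells of Cajal. The 2 RNAs of a pair were hybridised together on 2 arrays with the Cy5 and Cy3 dyes exchanged, which gives 6 arrays and 3 replicates. The values are log2 ratios, likely KitK641E over KitWT; the direction and the base are inferred, as set out under the processing, and every sign below would turn with the direction. The antrum was taken as a whole piece of tissue, so a change in the number of cells of a type and a change in RNA per cell cannot be told apart, and ratios do not show whether a gene was expressed at all. The pairs differed in more than the Wnt genes. Most of the liver genes measured were far above 0 in pairs 2 and 3, and most of the exocrine pancreas genes far below 0 in pair 1. The Y-linked gene Eif2s3y was far below 0 in pair 3. Values are given beside the results they touch.

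Wnt proteins are secreted lipid-modified ligands that bind Frizzled receptors and the co-receptors Lrp5 and Lrp6, which lets beta-catenin escape its destruction complex of Axin and Apc and act with Tcf and Lef factors in the nucleus. Sfrp proteins and Wif1 bind Wnt ligands outside the cell, and Dickkopf proteins such as Dkk1 and Dkk2 bind the Lrp co-receptors. R-spondins bind Lgr receptors and the ubiquitin ligases Rnf43 and Znrf3, which keeps Frizzled at the cell surface. In the antrum Lgr5 marks stem cells at the base of the glands, and Axin2 is a widely used target gene of the pathway.

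Promoter sequence is shown for 4 of the genes whose arrays all lay on one side of 0, so that the starts of genes above and below 0 can be read side by side: Dkk2 and Fzd7, which were above 0 on every array, and Rspo1 and Wnt2b, which were below 0 on every array. The 4 are a selection from the genes with a window. Sfrp2, also below 0 on every array, had a window too, but its sequence is not shown. Like the Rspo1 window, it held none of the motifs searched. Sfrp1, Sfrp4 and Lgr5 had no window in the table used. Each line gives the 250 bases before the annotated start from RefSeq, build GRCm38.p6. Capitals mark matches, on either strand, to the TCF/LEF core CTTTGA, the ETS core CCGGAA, the GC box GGGCGG or the TATA box TATAAA.
Dkk2 (chr3:132085042-132085291, plus strand): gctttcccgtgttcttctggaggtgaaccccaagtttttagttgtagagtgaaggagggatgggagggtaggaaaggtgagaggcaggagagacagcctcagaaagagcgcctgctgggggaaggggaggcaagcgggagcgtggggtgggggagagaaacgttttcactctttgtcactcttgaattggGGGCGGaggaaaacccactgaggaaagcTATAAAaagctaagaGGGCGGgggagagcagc
Fzd7 (chr1:59481897-59482146, plus strand): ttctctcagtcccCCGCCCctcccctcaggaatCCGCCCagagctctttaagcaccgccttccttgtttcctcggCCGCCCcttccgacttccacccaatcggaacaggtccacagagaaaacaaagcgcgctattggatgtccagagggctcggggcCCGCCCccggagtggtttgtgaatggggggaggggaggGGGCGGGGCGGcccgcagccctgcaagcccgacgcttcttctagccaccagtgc
Rspo1 (chr4:124986180-124986429, plus strand): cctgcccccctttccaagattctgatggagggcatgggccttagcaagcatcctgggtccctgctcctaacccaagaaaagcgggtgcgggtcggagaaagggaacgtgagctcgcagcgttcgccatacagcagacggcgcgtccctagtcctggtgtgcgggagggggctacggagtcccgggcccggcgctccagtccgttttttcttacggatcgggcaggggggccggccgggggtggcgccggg
Wnt2b (chr3:104961710-104961959, minus strand): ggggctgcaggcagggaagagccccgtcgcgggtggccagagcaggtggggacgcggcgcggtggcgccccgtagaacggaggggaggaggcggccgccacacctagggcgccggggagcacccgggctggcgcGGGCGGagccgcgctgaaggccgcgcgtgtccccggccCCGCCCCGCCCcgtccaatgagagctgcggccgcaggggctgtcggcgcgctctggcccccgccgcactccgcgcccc

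The Dkk2 window held 1 TATA box, whose first base is 32 bases before the start, and 2 GC boxes. The Fzd7 window held 6 GC boxes, of which 2 overlap, and the Wnt2b window 3, of which 2 overlap likewise. The Rspo1 window held none of the 4 motifs. The exact letters of the TCF/LEF and ETS cores given above were not found in the 4 windows, and other forms of these motifs were not searched. Of all 32851 windows of this length, 13.8% held the TCF/LEF core and 12% the ETS core. The GC box was in 32.7% and the TATA box in 12.4%. Of the 49 genes, 30 had a window that was searched. The search left out the genes of a single chromosome, a step not applied to the shares over all windows. Of the 30, 22 had a GC box, 7 a TATA box, 5 a TCF/LEF core and 3 an ETS core in at least 1 of their windows. Some genes had several windows, so these counts of genes are not like for like with the shares of windows above. These matches describe letters in a window and say nothing of binding.

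Most of the 49 genes lay close to 0. Their median log2 ratio was -0.01, against 0.00 over all 30649 features, and 21 were above 0 and 28 below. Of all features 52.1% were above 0. In 31 of the 49 (63.3%) the mean log2 ratio was within 0.1 of 0. This was a smaller share than the 74.1% of all features and the 68.2% of all named genes. The widest shifts were all among secreted antagonists: Sfrp1 and Dkk2 above 0 and Sfrp2 below. By a size of 0.5, chosen after the values were seen, these 2 genes exceeded 0.5 and Sfrp2 lay below -0.5, while 1.37% of all features exceeded 0.5 and 0.561% lay below -0.5.

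In limma's test of the 3 pair means over all 30649 features, none of the 49 genes passed at an adjusted p of 0.05 in either direction, with adjusted p-values between 0.891 and 0.998. The background in that test was 0.00653% of features called higher (2 of 30649, the inflammatory genes Retnla and S100a8) and 0% called lower. At an unadjusted p of 0.05, 2 of the 49 were higher (Sfrp1 and Fzd7), against 2.74% of features, and 5 were lower (Sfrp2, Sfrp4, Lgr5, Rspo1 and Wnt2b), against 2.16%. On all 6 arrays 3 of the 49 lay above 0, against 3.87% of features, and 5 below 0, against 3.45%. These shares describe the family beside the table and are no test of it. With 3 pairs an exact permutation test that turns the signs of the pairs cannot go below a two-sided p of 0.25.

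**Figure D1:**
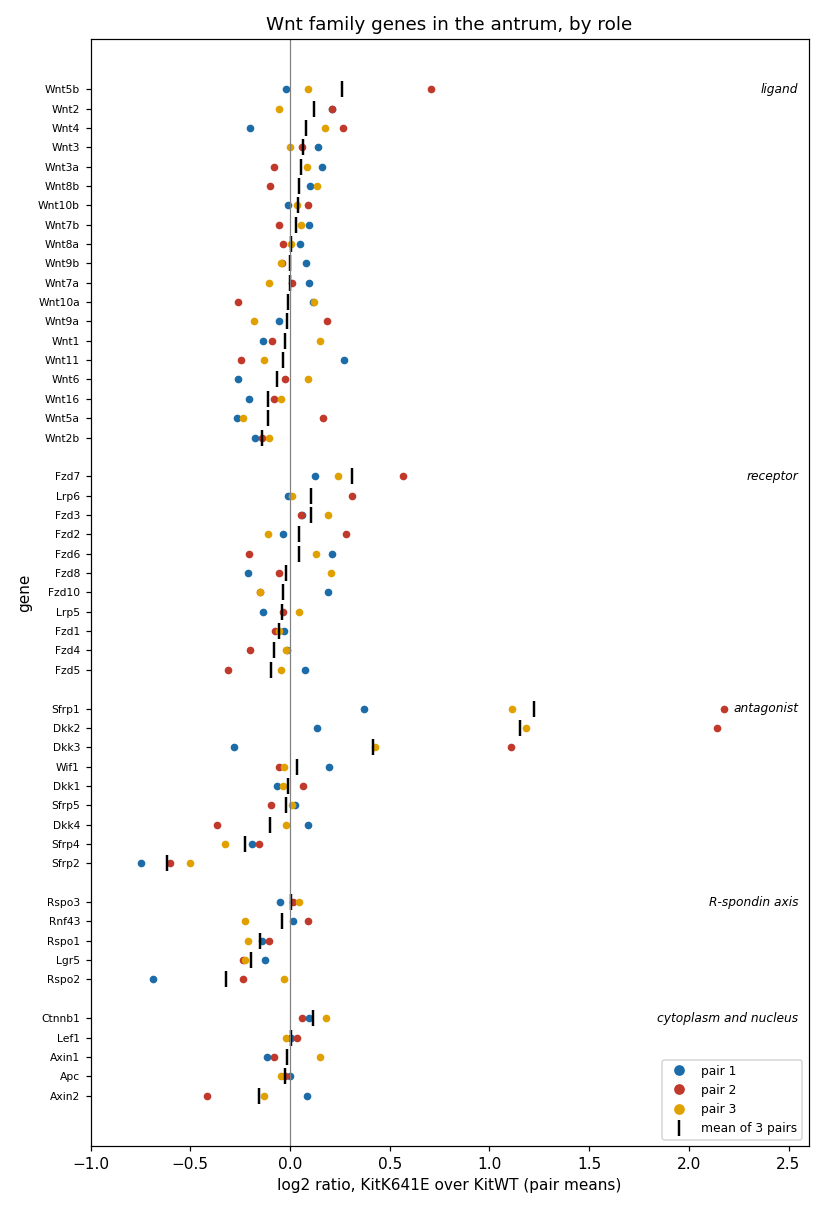
Pair means of the log2 ratio, KitK641E over KitWT, for each of the 49 genes, grouped by role, with each pair as a coloured point and the mean of 3 pairs as a black bar. Sfrp1 and Dkk2 reach 2.18 and 2.14 in pair 2, Sfrp2 lies between -0.75 and -0.50, and most ligands and receptors crowd around 0.

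Sfrp1, a secreted protein that binds Wnt ligands through a Frizzled-like domain, had the highest mean of the family. Its log2 ratios on the arrays with the mutant in Cy5 and in Cy3 were 0.29 and 0.45 in pair 1, 2.26 and 2.09 in pair 2, and 1.21 and 1.02 in pair 3. All 6 arrays lay above 0, with pair 1 well below the other two and pair 2 highest. The mean was 1.22 ± 0.38 (SE, n = 3), a 2.33-fold ratio, with a 95% interval of 0.14 to 2.30 and a limma adjusted p of 0.923. Without pair 2 the mean was 0.74, and without pair 1 it was 1.65.

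Dkk2, a Dickkopf protein that binds Lrp co-receptors, followed Sfrp1 closely pair by pair. Its arrays gave 0.17 and 0.10 in pair 1, 2.17 and 2.12 in pair 2, and 1.32 and 1.04 in pair 3. The 2 dye orientations of a pair differed by at most 0.28, while the pair means spanned 2.01, so the spread lay between pairs and not between arrays. The mean was 1.15 ± 0.42 (SE, n = 3), with a 95% interval of -0.04 to 2.35 and an adjusted p of 0.923. It was 0.66 without pair 2 and 1.66 without pair 1.

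Dkk3, a divergent Dickkopf protein, had the same order of pairs but changed sign. Its pair means were -0.28, 1.11 and 0.43 in pairs 1, 2 and 3, and both arrays of pair 1 were below 0. Its 2 probes agreed in direction within each pair but not in size: the first gave -0.51, 1.56 and 0.59, and the second -0.06, 0.66 and 0.26. The mean of 0.42 ± 0.29 (SE, n = 3) was 0.07 without pair 2 and 0.77 without pair 1.

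Fzd7, a Frizzled receptor expressed in gut epithelium, was the only receptor above 0 on all 6 arrays. Its arrays, mutant in Cy5 then Cy3, gave 0.14 and 0.12 in pair 1, 0.48 and 0.65 in pair 2, and 0.11 and 0.37 in pair 3. Pairs 1 and 3 overlap and pair 2 stands above both. The mean was 0.31 ± 0.10 (SE, n = 3), with an adjusted p of 0.923, and 0.18 without pair 2.

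**Figure D2:**
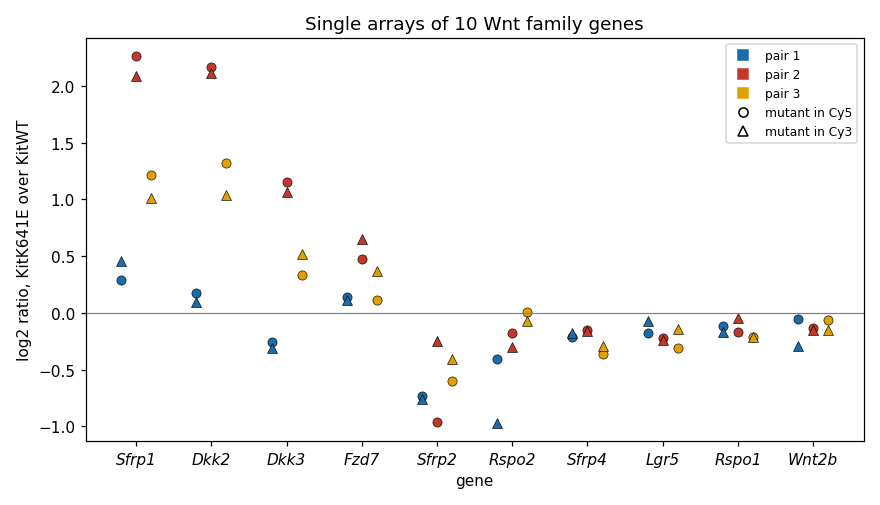
Log2 ratio on each of the 6 arrays for 10 genes, with pairs in colour, circles for the mutant in Cy5 and triangles for the mutant in Cy3. Sfrp1 and Dkk2 separate by pair with both dyes close together, whereas the Sfrp2 arrays of pair 2 lie apart at -0.96 and -0.25.

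Sfrp2, a close relative of Sfrp1 made by stromal cells of the gut, lay on the other side of 0 in every pair. Its arrays gave -0.73 and -0.76 in pair 1, -0.96 and -0.25 in pair 2, and -0.60 and -0.40 in pair 3. All 6 were below 0, and the pair means of -0.75, -0.60 and -0.50 were close to each other. The mean was -0.62 ± 0.06 (SE, n = 3), with a 95% interval of -0.80 to -0.44 and an adjusted p of 0.891, the lowest of the family. The 2 arrays of pair 2 differed by 0.72, more than the 0.25 that the pair means spanned. Sfrp2 was among the 22 of 49 genes whose arrays differed more within a pair than the pair means spanned. With a pair left out the Sfrp2 mean stayed between -0.67 and -0.55.

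The remaining antagonists were near 0 except Sfrp4. Sfrp4, another Wnt-binding protein, had -0.21 and -0.17 in pair 1, -0.15 and -0.16 in pair 2, and -0.36 and -0.30 in pair 3, below 0 throughout. Its mean was -0.23 ± 0.05 (SE, n = 3), with an adjusted p of 0.923. Dkk1, Dkk4, Sfrp5 and Wif1 had means between -0.10 and 0.04, and 1 of these 4 was above 0. The Wif1 mean averages opposite readings: its arrays of pair 1 gave 0.80 with the mutant in Cy5 and -0.41 with it in Cy3. This was the largest gap within a pair among the 49 genes. The secreted antagonists were thus found on both sides of 0, with 4 of 9 above it and a median log2 ratio of -0.01, and the Sfrp genes themselves ran from -0.62 to 1.22.

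Among genes of the R-spondin axis 4 of 5 were below 0, with a median of -0.15, while 14667 of all 30649 features were below 0. The 4 include Rnf43, whose mean was only -0.04. Lgr5, the R-spondin receptor of antral stem cells, gave -0.18 and -0.07 in pair 1, -0.22 and -0.24 in pair 2, and -0.31 and -0.14 in pair 3. Every array was below 0, and the mean was -0.19 ± 0.05 (SE, n = 3), with a 95% interval of -0.32 to -0.07 and an adjusted p of 0.923. Rspo1, an R-spondin ligand, was also below 0 on every array, with pair means of -0.14, -0.10 and -0.21 and a mean of -0.15 ± 0.04 (SE, n = 3).

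Rspo2, another R-spondin ligand, differed between pairs. Its pair means were -0.69, -0.24 and -0.03, and 5 of its 6 arrays were below 0. The mean of -0.32 ± 0.15 (SE, n = 3) was -0.13 without pair 1. Rspo3, an R-spondin made in the gut by stromal cells, had -0.05, 0.02 and 0.05, a mean of 0.00 ± 0.04 with a 95% interval of -0.12 to 0.13. Its sign went with the dye. Every array with the mutant in Cy5 was below 0, with a mean of -0.09. Every array with the mutant in Cy3 was above 0, with a mean of 0.10. Rnf43, a ubiquitin ligase that removes Frizzled from the surface, had a mean of -0.04 ± 0.08, but its arrays of pair 2 gave 0.67 with the mutant in Cy5 and -0.48 with it in Cy3.

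The 19 ligands had a median log2 ratio of 0.00 and none of them exceeded 0.5 in size. Wnt5b, a ligand usually placed in the beta-catenin-independent branch, had the highest mean, 0.26 ± 0.17 (SE, n = 3). This rested on pair 2, since its pair means were -0.02, 0.71 and 0.09, and without pair 2 the mean was 0.04. Wnt5a, the relative of Wnt5b and a ligand of the gut stroma, had -0.27, 0.17 and -0.24, a mean of -0.11 ± 0.11, so its sign differed between pairs. Its 2 probes gave means of -0.12 and -0.10.

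Wnt2b, a ligand of the gut stroma, was the only ligand on one side of 0 on all 6 arrays, with pair means of -0.17, -0.14 and -0.11. Its mean was -0.14 ± 0.04 (SE, n = 3), with an adjusted p of 0.923. Its 2 probes differed: 1 gave -0.36, -0.28 and -0.23 in the 3 pairs, while the other stayed within 0.02 of 0 in each. The other 16 ligands, Wnt1, Wnt2, Wnt3, Wnt3a, Wnt4, Wnt6, Wnt7a, Wnt7b, Wnt8a, Wnt8b, Wnt9a, Wnt9b, Wnt10a, Wnt10b, Wnt11 and Wnt16, had means between -0.11 and 0.12 with 8 above 0. Their pair means ran from -0.26, for Wnt10a in pair 2, to 0.27, for Wnt11 in pair 1.

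Wnt genes that lie next to each other in the genome, with no other protein-coding gene between their starts, did not share a direction in every pair. There were 4 such couples. Wnt10b and Wnt1 had means of 0.04 and -0.03, Wnt6 and Wnt10a -0.07 and -0.01, Wnt3a and Wnt9a 0.05 and -0.02, and Wnt9b and Wnt3 0.00 and 0.07. All 8 means lay within 0.1 of 0.

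Apart from Fzd7 the receptors were close to 0. Lrp6, a co-receptor, had -0.01, 0.31 and 0.01 in the 3 pairs, a mean of 0.10 ± 0.08 that was 0.00 without pair 2. Lrp5, the other co-receptor, had a mean of -0.04 ± 0.05, and its 2 probes gave -0.09 and 0.00. Fzd1, Fzd2, Fzd3, Fzd4, Fzd5, Fzd6, Fzd8 and Fzd10 had means between -0.09 and 0.10, with 3 of the 8 above 0. Among these 8 the lowest pair mean was -0.31, for Fzd5 in pair 2, where its 3 probes gave -0.67, -0.33 and 0.06.

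Genes acting inside the cell showed small ratios. Axin2, a scaffold of the destruction complex and a Wnt target, had 0.10 and 0.06 in pair 1, -0.38 and -0.45 in pair 2, and 0.04 and -0.30 in pair 3. Pair 2 was the lowest and pair 1 was above 0, the reverse of the order in Sfrp1 and Dkk2. The mean was -0.15 ± 0.11 (SE, n = 3), with a 95% interval of -0.47 to 0.16, and it was -0.02 without pair 2 and -0.27 without pair 1.

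Ctnnb1, which encodes beta-catenin, was above 0 in each pair, with 0.10, 0.06 and 0.18. Its mean was 0.11 ± 0.05 (SE, n = 3), and its 2 dye orientations differed, with 0.20 for the mutant in Cy5 and 0.03 for the mutant in Cy3. Apc, the scaffold that holds beta-catenin for destruction, had a mean of -0.02 ± 0.04, and Lef1, a nuclear partner of beta-catenin, 0.01 ± 0.04. Axin1, the other Axin scaffold, had -0.02 ± 0.07. The 95% intervals of Apc and Lef1 ran from -0.13 to 0.09 and from -0.10 to 0.12.

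**Figure D3:**
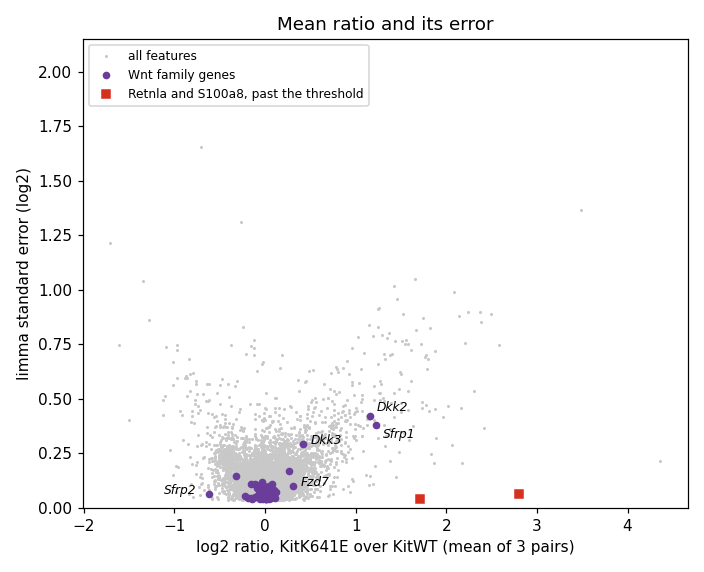
Mean log2 ratio over 3 pairs against limma's standard error for all 30649 features in grey and the 49 Wnt family genes in purple, with Retnla and S100a8 in red. Sfrp1 and Dkk2 combine means of 1.22 and 1.15 with errors of 0.38 and 0.42, while Sfrp2 has an error of 0.06.

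Of the 49 genes, 14 had more than 1 probe, and in 7 of these the probe means fell on both sides of 0. In most of the 7 the probe means were small, and the widest splits were those of Wnt2b and Fzd5 given above. Sfrp1, Dkk2, Sfrp2, Sfrp4, Lgr5, Rspo1, Rspo2, Fzd7 and Axin2 rest on 1 probe each, so their values have no second probe beside them.

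**Figure D4:**
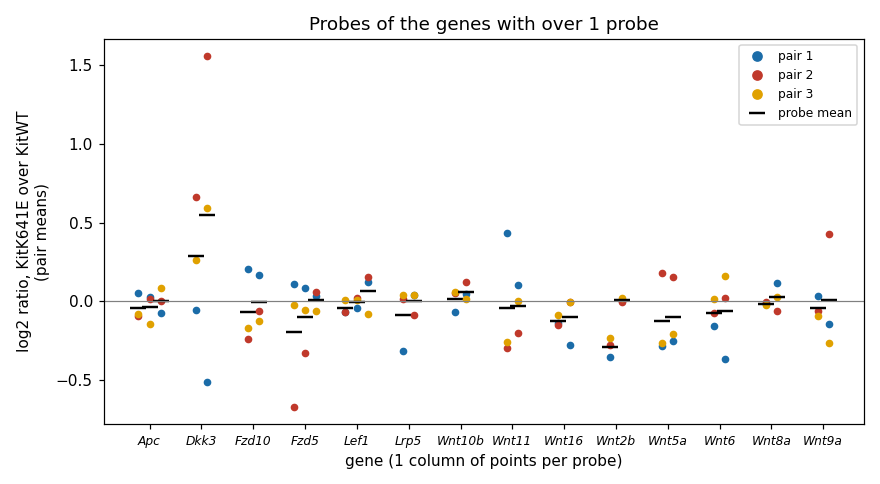
Pair means of the log2 ratio for each probe of the 14 genes with more than 1 probe, with pairs in colour and the mean of each probe as a black bar. The 2 Dkk3 probes share the order of pairs but differ in size, and 1 Wnt2b probe lies at -0.29 while the other lies at 0.01.

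Other genes of the pathway were taken from 3 lists. Of 52 further core genes 42 were measured, 22 above 0 and 20 below, with a median log2 ratio of 0.00 and none past the threshold. Gpc4, a heparan sulfate proteoglycan of the cell surface, had the lowest p with 0.36 ± 0.07 (SE, n = 3) and was above 0 on 6 of 6 arrays. Nkd1, an intracellular inhibitor of Wnt signalling that is itself a target, had -0.29 ± 0.08 and was below 0 on all 6. Csnk1a1, the casein kinase that primes beta-catenin for destruction, had 0.22 ± 0.06. Fbxw11 had 0.11 ± 0.04, Ptk7 0.13 ± 0.05, and the secreted antagonist Frzb -0.13 ± 0.06.

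The planar polarity and calcium branch had 21 of 25 genes measured, 9 above 0 and 12 below, with a median of -0.02 and none called. Mapk9, a Jun kinase, had -0.12 ± 0.04 and lay below 0 on all 6 arrays. The other 5 with the lowest p were Daam1 with 0.08 ± 0.05, Vangl2 with 0.07 ± 0.05, Rhoa with -0.09 ± 0.06, Intu with 0.09 ± 0.07 and Rac1 with -0.05 ± 0.05.

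Genes known as Wnt targets in various tissues showed no common direction. Of 36 listed, 32 were measured, 14 above 0 and 18 below, with a median of -0.02 and none called. Tnfrsf19, a receptor also called Troy that marks stem cells, had -0.31 ± 0.07 (SE, n = 3), below 0 on 5 of 6 arrays. Id2, an inhibitor of basic helix-loop-helix factors, had -0.40 ± 0.10 and was below 0 on all 6. Sox4, a transcription factor, was above 0 on all 6 with 0.21 ± 0.07. Bmp4, a ligand of the gut mesenchyme, had -0.55 ± 0.20, and its pair means of -1.03, -0.08 and -0.55 were far apart. Ccn4, a secreted matricellular protein, had 0.28 ± 0.12.

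The pair means were also set beside markers of the cell types that a piece of antrum could hold. Dkk2, Sfrp1, Dkk3 and Wnt5b, the 4 genes with the largest SD over pairs, and Fzd7, with a smaller one, were lowest in pair 1 and highest in pair 2. Rspo2 and Wnt11, next in SD at 0.34 and 0.27, did not have this order: Rspo2 was highest in pair 3, and Wnt11, with 0.27, -0.25 and -0.13, was highest in pair 1. Kit had the same order, with -0.02, 1.89 and 0.81, and so did the list of 9 genes of the interstitial cells of Cajal, Kit among them, with medians of 0.20, 1.89 and 0.86 and 7 of 9 members above 0 in the mean. The channel gene Ano1, a defining marker of these cells, had -0.07, -0.17 and -0.08. In all, 10 of the 49 genes (20.4%) had this order, as did 20.5% of all features.

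The medians of the liver, smooth muscle and leukocyte lists had the same order, and those of the other 5 lists did not. Single genes could differ from their list. Among the stromal fibroblast genes Foxf1, with -0.13, 1.93 and 0.96, Col1a1, Col1a2, Col3a1 and Dcn had this order. Fbln1, Foxl1, Lum, Pdgfra and Postn did not. The 11 liver genes measured of 12 listed had medians of -0.08, 2.89 and 2.37, with albumin, Alb, at -0.27, 5.58 and 5.14. Within this list Ttr differed, with 0.10, 0.63 and -0.12, and Apoa1 was smaller in size, with -0.26, 0.91 and 0.34. The 10 smooth muscle genes had -0.94, 0.29 and -0.65, and the 5 leukocyte genes -0.09, 0.30 and 0.14. The 7 exocrine pancreas genes had -2.32, -0.08 and 0.02, and the 7 endothelial genes -0.54, -0.08 and -0.03, both lowest in pair 1 and highest in pair 3. Within the pancreas list Clps differed, with 0.50, 0.87 and -0.93. The part of any of these in the values of Sfrp1, Dkk2, Dkk3, Fzd7 and Wnt5b was not tested.

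Sfrp2 did not follow that order, since its pair means stayed between -0.75 and -0.50. The 10 stromal fibroblast genes, a population that makes Sfrp2, had medians of -0.12, 0.06 and -0.13, and the 10 gastric epithelial genes measured of 12 listed had 0.21, -0.21 and -0.17. The 8 genes of enteric neurons and glia measured of 11 listed had 0.04, 0.08 and 0.11. Axin2 was highest in pair 1 and lowest in pair 2, as the median of the epithelial list was. Of the epithelial genes Gast, Krt8, Tff1 and Tff2 had that order. Cdh1, Epcam, Gkn1, Gkn2, Krt18 and Pgc did not. In pair 3 the Y-linked gene Eif2s3y had a log2 ratio of -5.06, against -0.03 and -0.05 in pairs 1 and 2. The mice of pair 3 may thus have differed in sex as well as in genotype, and these cannot be told apart within that pair.

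**Figure D5:**
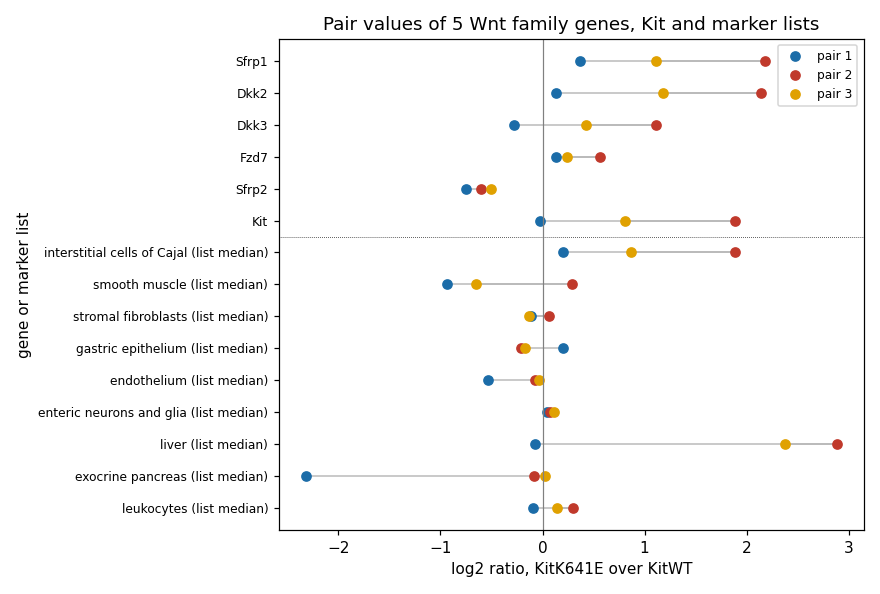
Pair values of the log2 ratio for 5 Wnt family genes and Kit, above the dotted line, and the medians of 9 marker lists below it. Sfrp1, Dkk2, Dkk3, Fzd7, Kit and the interstitial cell list run from pair 1 over pair 3 to pair 2, as the liver and smooth muscle lists do, whereas Sfrp2 keeps to a narrow range below 0.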

How the data were processed

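Two-colour arrays with oligonucleotide probes of 70 bases compared antral RNA of KitK641E and KitWT littermates, per the labels. The authors deposited 1 table of 38467 probes with no missing value, read here as log2 ratios of Cy5 over Cy3. Base 2 and this order are inferred: values are signed with sizes up to 5.83, array medians lie between -0.003 and 0.004, and the 2 arrays of a pair correlate at -0.61, -0.74 and -0.83. Total RNA was amplified before labelling, per the labels' protocols, and scanner, background correction and normalization were not given in the sources used here. Mutant over wild type is a direction that is likely only: it rests on that order and on Spry4 (1.38) and Tpbg (1.96) being above 0, since the title of the study's paper calls both up-regulated.

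Arrays with the mutant in Cy3 were turned in sign, probes of a gene averaged, then the 2 arrays of a pair. The platform annotation names 22941 probes by 1 gene symbol, and the 15526 unnamed probes stayed under their own identifiers, which gave 30649 features. Testing of the 3 pair means against 0 used limma 3.58.1 (R 4.3.3; lmFit and eBayes, two-sided, 2 residual and 1.8 prior degrees of freedom) with Benjamini-Hochberg adjustment over all features at 0.05. The code was tested on simulated data. Errors are limma's standard errors. The number of arrays limits the precision, and intensities were not used here.

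Genes named one by one are those with 1 sign on 6 arrays, the 12 of largest size, a fixed set of pathway genes, and the 6 of lowest p in each further list. Genes and lists were chosen with earlier results of these data known. Alternatives changed centring, scale, distribution, probe handling, dye orientation, the unit of replication, the features tested and the pairs used.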

Additional observations from a re-analysis of the deposited data

Results flagged for a closer look

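Over the 6 arrays, the 49 genes and the medians of 3 pathway lists were examined for 1 array far from the other 5, and 5 of these 52 results had one. By chance alone about 1 in 20 groups is picked out if its samples are independent, which 2 arrays sharing a pair's RNA are not. Among the 5, 3 lay on the array of pair 2 with the mutant in Cy5: Dkk4 at -0.814, against -0.054 to 0.106 on the others, Fzd4 at -0.432, against -0.051 to 0.031, and Wnt10a at -0.709, against 0.068 to 0.187. Lrp5 lay at -0.26 on the array of pair 1 with the mutant in Cy3, against -0.044 to 0.058. On that array its 2 probes gave -0.63 and 0.11, so the low value came from 1 of them. Wnt2 lay at -0.228 on the array of pair 3 with the mutant in Cy5, against 0.12 to 0.304.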

How the results depend on the processing

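None of the 49 genes passed under any of the 13 alternatives, where the smallest adjusted p of a gene described one by one was 0.0747, for Sfrp2 with the 6 arrays taken as independent. Of these 20 genes 14 kept their sign under all 13, among them Sfrp1 (0.74 to 1.65), Dkk2 (0.66 to 1.66) and Sfrp2 (-0.76 to -0.47), and Apc, Lef1, Lrp5, Rnf43, Rspo3 and Wnt2b did not. Features called higher, 2 in the test reported, numbered 0 with arrays scaled to a common spread, with each probe on its own, with the mutant in Cy5 only and with any pair left out, and 1 with quantile normalization and with the mutant in Cy3 only. With the pair as a random block 44 were higher and 17 lower, and with 6 independent arrays and a dye intercept 25 and 14; both count the 2 arrays of a pair. Over fewer arrays, more of the 49 genes had 1 sign by construction. With the mutant in Cy5 only 6 were above and 9 below 0 on every array, with the mutant in Cy3 only 10 and 9, and with a pair left out 5 to 8 and 7 to 10. Dim probes could not be filtered from ratios.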
